A study of Homo sapiens with 47 samples.

Results

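C5 is 1 of 6 *NUP58*-mutated clones of HAP1, a near-haploid human line derived from a chronic myeloid leukemia that grows attached to the dish. Its 4 libraries were compared with the 4 libraries of unedited HAP1 cells (WT), so that the comparison rests on 8 of the 47 libraries sequenced. The others are 4 libraries of cells that received Cas9 without a guide (EV), 20 of the clones C1, C2, C3, C4 and C6, and 15 of the colorectal carcinoma line HCT116. C5 cells were edited in exons 4 and 13 of *NUP58* with CRISPR-Cas9, grown from a single cell and harvested at passage 1. Since C5 is a single clone, the edit of *NUP58* and whatever else its founder cell carried cannot be told apart in these libraries.

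NUP58 belongs to the central channel of the nuclear pore complex (NPC), where it forms a subcomplex with NUP62 and NUP54. Its phenylalanine-glycine repeats line the passage that large cargoes cross when they are carried by karyopherins. Importins bring proteins into the nucleus, exportins carry them out, and the GTPase Ran sets the direction of both. HAP1 cells express few genes of mature blood cells although the line comes from a leukemia.

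Levels are in FPKM, the fragments of a gene corrected for the length of its transcripts and for sequencing depth. Differences were taken on log2(FPKM + 1), a scale on which changes of weakly expressed genes come out too small, and were tested with limma over the 13164 genes whose mean reached 1 FPKM. Of these genes, 994 (7.55%) passed an adjusted p of 0.05 in C5 against WT. Higher in C5 were 432 (3.28%) and lower were 562 (4.27%). At the study's own criterion, an unadjusted p under 0.01 with a fold change over 2, 304 genes (2.31%) were called. EV differed from WT at 5 of 13153 genes (0.038%) and C5 from EV at 1891 of 13158 (14.4%). Outside chromosome 13, 416 genes were higher and 459 lower in C5 than in WT. Chromosome X held 185 of those 459 lower genes. Without C5 replicate 1, 3 or 4 or WT replicate 1 or 4, the counts over all chromosomes fell to 185 to 265 higher and 315 to 360 lower, and 157 higher and 275 lower genes kept their call without any one library.

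The 8 libraries were alike in depth. The value of a single fragment put the depth of the C5 libraries at 0.780 to 0.880 and that of the WT libraries at 0.793 to 1.0 of WT replicate 1, and FPKM summed to 627676 to 650576 per library. Among the blood cell markers, *PTPRC*, *SPI1*, *GATA1*, *CSF1R* and *HBB* were listed at 0 in all 8 libraries, whereas the transcription factors *TAL1*, *GATA2* and *RUNX3* were expressed. Markers of HCT116 cells summed to 57.3 to 60.2 FPKM in C5 and 56.6 to 65.1 FPKM in WT, against 1752 to 3074 FPKM in the HCT116 libraries. In libraries of bulk RNA, fewer cells that express a gene and less RNA per cell cannot be told apart.

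*NUP58* (ENSG00000139496.15; chromosome 13, 25301524 to 25365390, plus strand of GRCh38) fell to 37.8% of its WT level in C5. Its FPKM was 18.2, 11.9, 22.1 and 10.3 in the C5 libraries and 34.3, 34.7, 50.4 and 45.8 in the WT libraries. All 4 C5 values lay below all 4 WT values, with a log2 difference of -1.39 ± 0.23 (SE; limma adjusted p = 0.00659). A two-sided exact permutation test gave p = 0.0286, which is the smallest p that the 70 arrangements of 4 against 4 libraries allow. The stretch of chromosome 13 that holds *NUP58* was higher in C5, by a median of 0.51 over 46 tested genes on the log2 scale, and the rest of the chromosome was lower, with a median of -0.68 over 186 genes.

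Import receptors of more than one family were higher in C5. *TNPO2*, a transportin that carries RNA-binding proteins into the nucleus, was at 106, 101, 109.5 and 121 FPKM in C5 and 56.4, 51.2, 78.2 and 73.3 FPKM in WT, a log2 difference of 0.76 ± 0.14 (SE; limma adjusted p = 0.0114). Without any one of the 8 libraries it still passed. *KPNA4*, an importin alpha that binds classical nuclear localization signals, was at 26.9, 20.7, 24.4 and 24.2 FPKM in C5 and 14.1, 12.3, 18.2 and 15.8 FPKM in WT. The C5 and WT values of both genes did not overlap. *KPNA4* passed with a log2 difference of 0.65 ± 0.14 (SE; limma adjusted p = 0.0209), but its adjusted p rose to 0.053 to 0.0711 when C5 replicate 1, 3 or 4 or WT replicate 1 or 4 was left out. *KPNA5* rose by 0.88 (adjusted p = 0.0277 from limma), a call lost without any of 7 libraries, all but WT replicate 2.

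*TNPO1*, the closest relative of *TNPO2*, was at 92.4, 60.3, 103 and 71.7 FPKM in C5 and 47.9, 42.7, 66.0 and 55.7 FPKM in WT. The groups overlapped in 1 C5 library, and the difference of 0.60 ± 0.19 (SE) missed the threshold (limma adjusted p = 0.0854; exact permutation p = 0.0571). It passed without C5 replicate 2, the overlapping library, at 0.74, and against EV, from which C5 differed in *TNPO1* by 0.70 (limma adjusted p = 0.0161). *KPNB1*, the importin beta that works with the importin alphas, was at 287, 174, 325 and 224 FPKM in C5 and 215, 151, 324 and 267 FPKM in WT. Its groups overlapped throughout, and the difference was 0.09 ± 0.25 (SE; limma adjusted p = 0.865; exact permutation p = 0.743). Of 24 karyopherins tested, 3 passed as higher (12.5%, beside 3.28% of all genes), of which *TNPO2* alone in every fit without 1 library, and 1 as lower (4.17%, beside 4.27%), *IPO5* on chromosome 13 at -0.40 (adjusted p = 0.0258) in limma. Of 30 NPC components, *NUP35* of the inner ring rose by 0.55 (adjusted p = 0.0204) and the mRNA export factor *GLE1* changed by -0.43 (adjusted p = 0.0233) in limma, and both calls were lost in some fits without 1 library. Each direction thus held 3.33% of the NPC components, near the shares of all genes. The median of the components was -0.06, beside 0.007 for all genes tested.

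The largest rises outside chromosome 13 were mostly of genes that WT cells expressed at a few FPKM or less. Of 12932 genes tested outside chromosome 13, 128 passed with a rise over 2-fold and no overlap between C5 and WT. Of these 128, 39 had a mean WT level under 1 FPKM. Those 39 reached the filter on the mean through their C5 libraries, so low WT levels come in part from the choice of genes. The 15 with the largest log2 fold change include genes of vesicle release, cell adhesion, axon guidance and the cell cycle. Promoter sequences of *SYT1*, *LRRC7* and *PCDHB2*, all among these 15, are shown to display the CpG content of promoters of genes that were low in WT. They are the 250 bases before the RefSeq gene start (GRCh38.p14, plus strand, chr12:78864524-78864773, chr1:69567672-69567921 and chr5:141094365-141094614), with each CpG in capitals. GENCODE, used for gene positions here, starts *SYT1* earlier, so that its window lies inside the gene as GENCODE places it.
SYT1: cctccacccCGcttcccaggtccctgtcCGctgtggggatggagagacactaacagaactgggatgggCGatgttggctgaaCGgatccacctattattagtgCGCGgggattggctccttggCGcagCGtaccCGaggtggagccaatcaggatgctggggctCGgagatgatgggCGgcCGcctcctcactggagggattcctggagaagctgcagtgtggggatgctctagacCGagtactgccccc
LRRC7: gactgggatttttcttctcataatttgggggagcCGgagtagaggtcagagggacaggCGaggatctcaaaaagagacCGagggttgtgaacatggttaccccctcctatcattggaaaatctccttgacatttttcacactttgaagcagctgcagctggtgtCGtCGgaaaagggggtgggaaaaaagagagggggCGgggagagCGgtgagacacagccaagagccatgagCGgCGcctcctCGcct
PCDHB2: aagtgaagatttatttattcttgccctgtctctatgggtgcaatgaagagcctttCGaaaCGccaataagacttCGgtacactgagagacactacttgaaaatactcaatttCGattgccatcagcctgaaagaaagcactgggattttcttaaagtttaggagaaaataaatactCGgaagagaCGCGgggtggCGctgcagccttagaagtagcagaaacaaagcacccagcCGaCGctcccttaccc
The 3 windows hold 13, 10 and 10 CpG. Of the 9446 tested genes with a promoter in the RefSeq table, 81.9% have at least 13 CpG and 88.2% at least 10, and the median is 22. Among the 86 of the 128 risen genes that matched, the median was 13.

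*SYT1* (chromosome 12, 78863993 to 79452008, plus strand), which encodes the calcium sensor of synaptic vesicle release, had the largest rise. Its FPKM was 61.4, 83.8, 55.2 and 66.4 in C5 and 2.23, 2.98, 1.24 and 1.98 in WT, a log2 difference of 4.46 ± 0.19 (SE; limma adjusted p = 8.42e-06). It was also at 13.8 to 80.4 FPKM in the other 5 clones, and C5 differed from their mean by 0.74 ± 0.25 (SE; limma adjusted p = 0.0812). *CCND1*, the cyclin D1 that drives the entry into S phase, was at 18.2, 17.9, 16.8 and 22.9 FPKM in C5 and 1.97, 2.24, 3.90 and 1.35 FPKM in WT, a log2 difference of 2.61 ± 0.22 (SE; limma adjusted p = 0.000171). The C6 libraries were at the same height, at 22.1 to 23.6 FPKM, and the libraries of C1 to C4 at 4.45 to 9.06 FPKM. *BMP7*, a secreted ligand of the bone morphogenetic protein family, was at 10.5, 13.03, 9.48 and 11.9 FPKM in C5 and 1.88, 2.14, 1.28 and 0.922 FPKM in WT, a log2 difference of 2.28 ± 0.19 (SE; limma adjusted p = 0.000171). EV, however, was at 8.15 to 13.5 FPKM and itself differed from WT by 2.25 (adjusted p = 0.00366 from limma). Against EV, C5 differed in *BMP7* by 0.03 (adjusted p = 0.933 from limma). The other 29 of the 30 largest changes, 15 up and 15 down, also passed against EV.

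Other rises in this group were of *SEMA3A* (2.41, adjusted p = 0.000307), a secreted axon guidance cue, *HOXC10* (2.27, adjusted p = 0.000191), *HCLS1* (2.25, adjusted p = 0.000101), an actin regulator of blood cells, *VSNL1* (2.25, adjusted p = 0.000191), a neuronal calcium sensor, and *TMEM132E* (2.23, adjusted p = 0.000584), all log2 fold changes from limma. *KIAA1324L* rose by 2.80 (adjusted p = 4.68e-05 from limma). All 30 kept their call without any one of the 8 libraries, with an adjusted p of at most 0.0332 from limma.

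Some genes set C5 apart from the other clones as well as from WT. C5 was compared with the mean of C1, C2, C3, C4 and C6 in a fit of the 24 clone libraries, in which 463 of 13186 genes (3.51%) were higher and 558 (4.23%) lower. The SE and p-values of this fit come from the spread between libraries within clones and leave out the spread between clones. Without C5 replicate 1, 2 or 4 the higher genes were 261 to 293. *EPCAM* (chromosome 2, 47345158 to 47387601, plus strand), an adhesion molecule of epithelial cells, had the largest difference from the other clones among the genes named. Its FPKM was 15.04, 16.7, 10.5 and 16.2 in C5 and 0.695, 1.25, 1.04 and 0.927 in WT, a log2 difference of 2.97 ± 0.18 (SE; limma adjusted p = 4.65e-05). The 4 EV libraries were at 0.309 to 0.779 FPKM and the 20 libraries of the other clones at 0.181 to 0.837 FPKM, so that each C5 library lay above all 28 other HAP1 libraries. The difference from the other clones was 3.45 ± 0.14 (SE; limma adjusted p = 4.51e-13). In HCT116 cells *EPCAM* was at 102 to 272 FPKM. Of the other markers of HCT116 cells, *CDX2* was at 4.40 to 5.71 FPKM in C5 and 1.84 to 4.21 FPKM in WT, and *KRT19* at 0.938 to 1.42 FPKM in C5, 0.339 to 1.19 FPKM in WT and 231 to 665 FPKM in HCT116. *AREG*, *EREG*, *ELF3* and *CDH1* were under 1 FPKM in all C5 and WT libraries, and *KRT8* and *KRT18* were lower in every C5 library than in WT.

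*ZNF788*, which GENCODE lists as a transcribed unprocessed pseudogene of a zinc finger gene, was also higher in C5 than in all other HAP1 libraries, at 9.17, 7.29, 9.71 and 10.1 FPKM in C5, 0.447, 1.02, 0.384 and 0.524 FPKM in WT and 0.212 to 1.76 FPKM in the other clones, a difference from these of 2.63 ± 0.14 (SE; limma adjusted p = 2.97e-11). *LRRC7*, which encodes the postsynaptic scaffold densin-180, was at 12.1, 10.6, 9.12 and 13.5 FPKM in C5 and 0.367, 0.523, 0.277 and 0.186 FPKM in WT. The C6 libraries were between them at 5.35 to 6.88 FPKM, and C5 exceeded the mean of the other clones by 2.62 ± 0.12 (SE; limma adjusted p = 8e-13). *PCDHB2*, a clustered protocadherin of the cell surface, was at 8.16, 7.84, 7.44 and 8.12 FPKM in C5 and 0.353, 0.439, 0.240 and 0.434 FPKM in WT, with C2 nearest at 4.81 to 6.00 FPKM. *HOOK1*, a linker of endosomes to microtubules, was at 4.76 to 7.88 FPKM in C5, 0.701 to 1.33 FPKM in WT and 3.00 to 3.63 FPKM in EV. The noncoding *LINC01139* was at 8.90 to 21.9 FPKM in C5 and 0.0714 to 0.893 FPKM in WT but reached 22.4 FPKM in C4.

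The largest fall outside chromosome 13 was of *SERPINF1*, and those of *ACTG2*, *ERVK-28*, *ESRG* and *MATK* came next. *SERPINF1* (chromosome 17, 1762029 to 1777565, plus strand), which encodes the secreted pigment epithelium-derived factor, was at 8.04, 13.96, 2.94 and 15.7 FPKM in C5 and 113, 130.1, 70.0 and 87.0 FPKM in WT, a log2 difference of -3.34 ± 0.41 (SE; limma adjusted p = 0.00132). By the rule that named *SERPINF1*, its C5 and WT values could not overlap. C6 was as low, at 6.41 to 20.6 FPKM, whereas C3 and C4 reached 159.1 and 145.1 FPKM. C5 lay below the mean of the other clones by 2.31 ± 0.41 (SE; limma adjusted p = 0.00056), where the SE and p leave out the spread between clones. *MATK*, a kinase that phosphorylates the inhibitory tail of SRC family kinases, was at 1.497, 4.04, 2.96 and 5.68 FPKM in C5 and 29.8, 41.4, 23.3 and 23.3 FPKM in WT, a log2 difference of -2.80 ± 0.30 (SE; limma adjusted p = 0.000712). *IL4R* (chromosome 16, 27313668 to 27364778, plus strand), the receptor chain for interleukins 4 and 13, was at 0.914, 0.818, 0.615 and 0.475 FPKM in C5 and 7.64, 6.02, 6.35 and 7.50 FPKM in WT, a log2 difference of -2.21 ± 0.16 (SE; limma adjusted p = 0.0001). All C5 values of *IL4R* lay below those of the other clones, at 1.58 to 9.88 FPKM. Its promoter by RefSeq (chr16:27313724-27313973, GRCh38.p14, plus strand) is shown as one rich in CpG among the genes that fell, with CpG in capitals. As for *SYT1*, the window lies inside the gene as GENCODE places it.
IL4R: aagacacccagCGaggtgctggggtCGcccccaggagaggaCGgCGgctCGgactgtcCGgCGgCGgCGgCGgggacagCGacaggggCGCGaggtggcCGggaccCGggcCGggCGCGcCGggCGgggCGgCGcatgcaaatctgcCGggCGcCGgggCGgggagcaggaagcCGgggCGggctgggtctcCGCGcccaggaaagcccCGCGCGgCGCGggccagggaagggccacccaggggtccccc
The window holds 35 CpG, and 10.1% of the promoters of tested genes hold at least as many. It is not typical of the falls: the 9 matched promoters of the 15 largest falls had a median of 8 CpG, and the 78 matched ones of all 118 genes that fell over 2-fold without overlap had a median of 20.5.

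*TNFRSF1A*, the main receptor for tumour necrosis factor, was at 2.59, 2.45, 1.498 and 2.91 FPKM in C5 and 14.7, 20.9, 20.5 and 15.2 FPKM in WT, a log2 difference of -2.49 ± 0.19 (SE; limma adjusted p = 0.000101). Among the other clones, only the libraries of C6 were lower than C5 in *TNFRSF1A*, at 0.464 to 0.905 FPKM. *SPARC*, a matrix protein that binds collagen, was at 3.33, 6.07, 3.93 and 3.70 FPKM in C5 and 18.4, 24.3, 15.1 and 15.1 FPKM in WT, a log2 difference of -1.87 ± 0.20 (SE; limma adjusted p = 0.000746). The other clones had a median of 2.22 FPKM, and C5 differed from their mean by 0.46 ± 0.19 (SE; limma adjusted p = 0.152). Other falls were of *SLC43A3* (-2.34, adjusted p = 0.000992), a purine transporter, *SERPINB1* (-2.31, adjusted p = 0.00851), an inhibitor of neutrophil proteases, *C15orf59* (-2.25, adjusted p = 0.00106), *TNNI3* (-1.99, adjusted p = 0.00114), the cardiac troponin I, and *NGEF* (-1.85, adjusted p = 0.00712), a guanine nucleotide exchange factor, all in limma. *SLITRK2* (-2.05, adjusted p = 6.6e-05 in limma) and *CXorf57* (-1.93, adjusted p = 0.00017 in limma) lie on chromosome X. The noncoding *ERVK-28*, of an endogenous retrovirus, was at 0.583, 0, 0 and 0.375 FPKM in C5 and 10.7, 8.39, 10.9 and 11.1 FPKM in WT. *ESRG*, a noncoding gene known from embryonic stem cells, was at 0.137, 0.0248, 0 and 0.0524 FPKM in C5 and 3.59, 4.28, 14.6 and 8.60 FPKM in WT, a log2 difference of -2.88 ± 0.35 (SE; limma adjusted p = 0.00131).

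Developmental and signalling genes that passed were mostly higher in C5. Of 25 HOX genes tested, the homeobox regulators of body position, 7 passed and all were higher (28.0%, beside 3.28% of all genes). Their median difference was 0.58, with 20 above and 5 below 0, and 0.31 without the filter on low FPKM. Of the 7 calls, 5 were kept in every fit without 1 library. *HOXC10* was at 31.98, 30.8, 29.0 and 31.1 FPKM in C5 and 5.43, 8.88, 3.89 and 5.01 FPKM in WT, a log2 difference of 2.27 ± 0.19 (SE; limma adjusted p = 0.000191). *HOXD13* was at 23.2, 17.4, 23.6 and 21.1 FPKM in C5 and 6.36, 5.16, 6.96 and 6.48 FPKM in WT, a log2 difference of 1.62 ± 0.14 (SE; limma adjusted p = 0.000195). The rule that named *HOXC10* required no overlap, and the groups of *HOXD13*, which it did not name, did not overlap either. *HOXB9* rose by 2.15, *HOXA13* by 1.04 and *HOXA11* by 1.01, and the 7 genes lie in all 4 HOX clusters, on chromosomes 2, 7, 12 and 17. Against EV, 12 of the 25 passed as higher and 1 as lower, beside 944 and 947 of all 13158 genes, more than against WT.

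Of 32 Wnt signalling genes, 6 passed as higher (18.8%, beside 3.28% of all genes) and 1 as lower, with a median of 0.28. The risers were the receptors *FZD1*, *FZD3*, *FZD6* and *FZD8* (0.77, 0.73, 0.51 and 0.73), the secreted inhibitor *SFRP1* (1.401) and *WLS* (0.72), which escorts Wnt ligands to the cell surface. *WLS* was at 63.1, 57.1, 58.2 and 62.1 FPKM in C5 and 40.9, 33.7, 34.8 and 35.2 FPKM in WT. *PORCN*, the enzyme that acylates Wnt ligands, changed by -0.86 and lies on chromosome X. In the TGF-beta and BMP list, 4 of 32 genes passed, all higher (12.5%, beside 3.28% of all genes), with a median of 0.29. Beside *BMP7* these were the ligand *TGFB3* (1.29, adjusted p = 0.0033 in limma), the inhibitory *SMAD7* (1.01, adjusted p = 0.0149 in limma) and the BMP signal transducer *SMAD1* (0.51, adjusted p = 0.0445 in limma). Of the calls in these lists, 3 of the 6 Wnt genes and 2 of the 4 TGF-beta and BMP genes were kept in every fit without 1 library. Of 18 Notch genes, only the ligand *DLL1* passed (5.56%, beside 3.28% of all genes), and it rose by 1.19.

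Of 27 synaptic and exocytosis genes, 5 passed as higher (18.5%, beside 3.28% of all genes) and 1 as lower (3.70%, beside 4.27%). Of the 27, 15 were above 0 and 12 below. Next to *SYT1* the risers were *GABRA5*, a subunit of the GABA-A receptor, at 56.0, 62.6, 53.9 and 69.8 FPKM in C5 and 25.9, 19.6, 17.2 and 15.5 FPKM in WT (1.60, adjusted p = 0.000509 in limma), *MAP2*, a dendritic microtubule protein (1.37, adjusted p = 0.00223 in limma), the active zone gene *RIMS2* (0.97) and the adhesion gene *CNTNAP2* (0.74). Of 7 clustered protocadherins, whose median fell from 0.39 to 0.03 without a filter on low FPKM, *PCDHB2*, *PCDHB5* and *PCDHB8* passed as higher, at 2.70, 0.86 and 0.90. They are 42.9% of the list, beside 3.28% of all genes. *PCDHB2* was the one kept in every fit without 1 library. The paralogs share sequence, so reads of one can be counted for another.

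Of 32 integrins and adhesion genes, 5 were higher and 4 lower (15.6% and 12.5%, beside 3.28% and 4.27% of all genes), and 2 of the 4 lower ones lie on chromosome X. The laminin receptor subunit *ITGA6* (0.77, adjusted p = 0.00551), the fibronectin and VCAM1 receptor subunit *ITGA4* (1.20, adjusted p = 0.00321), *ITGB8* (1.48, adjusted p = 0.000959), *ITGA2* (0.60) and the tetraspanin *CD151* (0.54, adjusted p = 0.0144) rose in limma. *ITGA4* was at 27.5, 26.0, 30.5 and 27.4 FPKM in C5 and 13.1, 11.7, 14.9 and 7.75 FPKM in WT, without overlap. The glypicans *GPC4* (-1.77, adjusted p = 0.000195) and *GPC3* (-1.27, adjusted p = 0.0186), heparan sulfate proteoglycans encoded on chromosome X, fell in limma, as did N-cadherin, *CDH2* (-0.99, adjusted p = 0.0109), and the syndecan *SDC4* (-0.58, adjusted p = 0.0296). *GPC4* was at 22.2, 26.4, 19.5 and 25.2 FPKM in C5 and 94.9, 96.2, 66.2 and 72.6 FPKM in WT, and the groups were far apart.

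Epithelial and mesenchymal genes passed in both directions, 7.69% each way of the first list and 12.5% each way of the second. Of all genes, 3.28% were higher and 4.27% lower. Of 13 epithelial genes *EPCAM* passed as higher and the keratin *KRT8* as lower, at 2.23, 2.95, 2.21 and 2.75 FPKM in C5 and 10.6, 12.6, 6.01 and 10.8 FPKM in WT (-1.60, adjusted p = 0.0018 in limma). Of 16 mesenchymal genes the growth factor receptor *PDGFRA* and the repressor *ZEB2* passed as higher, and *TPM1* and *CDH2* as lower. *PDGFRA* was at 26.8, 22.1, 20.7 and 29.5 FPKM in C5 and 6.89, 8.04, 3.85 and 5.66 FPKM in WT, a log2 difference of 1.88 ± 0.20 (SE; limma adjusted p = 0.000746). Its groups did not overlap.

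The targets of YAP and of the serum response factor SRF, which switches on genes of the actin cytoskeleton, that passed were all lower. Of 28 tested, 6 passed, all lower (21.4%, beside 4.27% of all genes), with 19 of the 28 below 0 and a median of -0.19. *TPM1*, a tropomyosin of actin filaments, was at 39.7, 35.5, 43.0 and 39.1 FPKM in C5 and 73.1, 71.1, 83.5 and 86.5 FPKM in WT, a log2 difference of -0.98 ± 0.11 (SE; limma adjusted p = 0.000754). *FLNA*, an actin cross-linker encoded on chromosome X, fell by 1.08, *TPM4* by 0.50, *ACTN1* by 0.48, *SRF* itself by 0.51 and *MYH9* on chromosome 22 by 0.46 on the log2 scale. *TPM1*, *FLNA* and *TPM4* kept their calls in every fit without 1 library. *ACTG2*, the enteric smooth muscle actin, was not on the list and is named for its large fall, but is a known SRF target. It was at 0.357, 0.0469, 1.19 and 0.213 FPKM in C5 and 5.66, 6.20, 20.8 and 28.6 FPKM in WT, a log2 difference of -3.25 ± 0.48 (SE; limma adjusted p = 0.00329). Promoters of *ACTG2* (chr2:73892758-73893007) and *SRF* (chr6:43171019-43171268; both GRCh38.p14, plus strand) are shown with matches to the CArG box, the element that SRF binds, in capitals.
ACTG2: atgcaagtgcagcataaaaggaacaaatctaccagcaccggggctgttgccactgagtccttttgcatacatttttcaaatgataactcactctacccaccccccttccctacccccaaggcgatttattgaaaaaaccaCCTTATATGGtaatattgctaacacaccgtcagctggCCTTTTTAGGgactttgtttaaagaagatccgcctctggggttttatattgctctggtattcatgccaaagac
SRF: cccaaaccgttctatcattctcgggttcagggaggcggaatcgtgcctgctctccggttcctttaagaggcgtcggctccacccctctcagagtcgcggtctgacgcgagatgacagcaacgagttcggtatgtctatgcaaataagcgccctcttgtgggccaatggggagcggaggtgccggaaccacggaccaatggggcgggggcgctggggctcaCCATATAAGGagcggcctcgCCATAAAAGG
Each holds 2 matches. The CArG box reads the same on both strands, so 1 search covered both, and overlapping matches were counted. A match was present in 89 of 9446 promoters of tested genes (0.942%), in 6 of the 23 matched promoters of the list and in 3 of the 6 that fell, those of *SRF*, *FLNA* and *TPM4*. *TPM1*, *ACTN1* and *MYH9* fell without a match. *ACTG1*, *CNN2* and *EGR1* held matches and did not pass, and *EGR1* was above 0 (0.76, adjusted p = 0.596 in limma). As the list was made of known targets, its share of matches says nothing on the fall. A match describes the letters and does not show binding.

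Of 25 cholesterol synthesis genes, 3 passed and all were lower, beside 4.27% lower of all genes. Without chromosomes 13 and X, only 1 member passed as lower, so the calls do not show a fall of the pathway as a whole. Of the 25, 20 were below 0, with a median of -0.19, which was also -0.19 without chromosomes 13 and X. *NSDHL* and *EBP*, enzymes of late steps, lie on chromosome X and changed by -1.42 (adjusted p = 0.00149) and -0.62 (adjusted p = 0.00349) in limma. *HMGCS1*, an early enzyme of the pathway on chromosome 5, was at 83.6, 74.8, 74.9 and 77.8 FPKM in C5 and 119, 127, 108 and 121 FPKM in WT (-0.60, adjusted p = 0.00332 in limma). Of 15 fatty acid synthesis genes, *ACLY* (-0.51, adjusted p = 0.0111) and *ELOVL5* (-0.35, adjusted p = 0.0475) were lower and *GPAM* (0.55, adjusted p = 0.044) higher in limma. The shares were 13.3% lower and 6.67% higher, beside 4.27% and 3.28% of all genes.

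Of 24 NRF2 and glutathione genes, which protect against oxidants, 6 were lower and 2 higher. *NQO1*, a quinone reductase, fell from a mean of 65.9 FPKM in WT to 30.7 FPKM in C5 (log2 fold change -1.09). *GSTP1* (-0.57, adjusted p = 0.0186), *HMOX1* (-0.67, adjusted p = 0.0198), *GSR* (-0.43, adjusted p = 0.0151) and *TXN* (-0.38) also fell, and the peroxidase *GPX4* (0.39, adjusted p = 0.0413) and *GSTM3* (1.16, adjusted p = 0.0447) rose in limma. The calls of these 7 were each lost in at least 1 fit without 1 library.

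Of 75 cytosolic ribosomal protein genes, 70 were above 0, with a median of 0.21. As higher 9.33% passed and as lower 2.67%, beside 3.28% and 4.27% of all genes. Of them 7 passed as higher, among them *RPL37* at 1424, 1546, 1392 and 1487 FPKM in C5 and 1086, 1087, 977 and 1052 FPKM in WT (0.48, adjusted p = 0.00551 in limma), *RPL22* (0.40, adjusted p = 0.01 in limma) and, on chromosome 13, *RPL21* (0.74, adjusted p = 0.00167 in limma). *RPL39* and *RPL10*, both on chromosome X, were the 2 lower ones. *RPL39* was at 2697, 3292, 2764 and 3007 FPKM in C5 and 4710, 4956, 4689 and 5482 FPKM in WT, without overlap (-0.76, adjusted p = 0.00133 in limma), and *RPL10* changed by -0.59 (adjusted p = 0.01).

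Cell cycle genes were mixed, with 4.35% higher and 6.52% lower, near the 3.28% and 4.27% of all genes. Of 46, *CCND1* and the CDK inhibitor *CDKN1B* (0.75, adjusted p = 0.0241) were higher, and *CCND3* (-0.44, adjusted p = 0.0199), *AURKA* (-0.64, adjusted p = 0.0208) and *CCNE1* (-0.78, adjusted p = 0.032) were lower in limma. *AURKA*, a mitotic kinase, was at 61.2, 61.7, 69.8 and 56.1 FPKM in C5 and 101, 113, 74.4 and 105 FPKM in WT, without overlap. Of these 5 only *CCND1* was called in every fit without 1 library. Of 34 ATF4 amino acid response genes, the transporters *SLC7A1* (-0.70, adjusted p = 0.0165, on chromosome 13) and *SLC1A4* (-0.58, adjusted p = 0.0214) were lower in limma. Of 22 genes of the unfolded protein response, *DNAJC3* (-0.71, adjusted p = 0.00851, on chromosome 13) and *SDF2L1* (-0.66, adjusted p = 0.028, on chromosome 22) were lower, and of 18 heat shock genes *BAG3* (-0.40, adjusted p = 0.0496) was lower in limma. The shares lower in the ATF4, unfolded protein and heat shock lists were 5.88%, 9.09% and 5.56%, beside 4.27% of all genes.

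In limma, 5 lists had no member past the test. At an unadjusted p under 0.05, the 31 glycolysis and hypoxia genes had 4 higher and 1 lower, the 22 p53 targets 4 lower, the 15 MHC class I genes 1 higher and 1 lower, the 35 proteasome genes 1 higher and 1 lower, and the 8 Ran cycle genes 1 higher. The share of all genes at this unadjusted threshold was not taken, so nothing is read from these counts. An unmoderated test with unequal variances called 1 proteasome gene and 1 Ran cycle gene, beside 207 higher and 276 lower of all 13164 genes. Among the p53 targets, the CDK inhibitor *CDKN1A*, named after its values were seen, had a mean of 3.44 FPKM in C5 and 26.1 FPKM in WT, with a log2 fold change of -2.09 that missed the threshold (adjusted p = 0.0535 from limma).

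Beyond chromosome 13, the position of genes went with their change in C5. The genes of chromosome X were lower by a median of 0.55 on the log2 scale over 447 tested genes, of which 185 (41.4%) passed as lower and 8 as higher. Each C5 library showed it, with medians of -0.54, -0.49, -0.52 and -0.57, and the means of EV and the other 5 clones were between -0.08 and 0.04. Stretches were then sought in which the running median over 25 neighbouring tested genes exceeded 0.3 in size for at least 25 genes. This rule was set after the chromosome medians had been seen, and the stretches are described without a test.

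On chromosome X, 213 tested genes from *POF1B* to *TMLHE*, chromosome X, 85277396 to 155719098 of GRCh38, were lower by a median of 0.83, to 0.563 of the WT level. The 4 C5 libraries had medians of -0.86, -0.79, -0.79 and -0.82. In this stretch 202 of the 213 genes were below 0, 134 passed as lower and 2 as higher. On the short arm and up to *RRAGB*, 3 stretches with 145 genes had a median of -0.44, and 133 of these genes were below 0. In between, from *UBQLN2* to *ZNF711*, 72 genes had a median of 0.06, with 6 passing as higher and 6 as lower. The genes of the distal stretch include *GPC3*, *GPC4*, *SLITRK2*, *CXorf57*, *NSDHL*, *FLNA*, *RPL10*, *RPL39*, *DKC1* (-0.66, adjusted p = 0.0485 in limma), which encodes the RNA-modifying dyskerin, and the respiratory gene *NDUFA1* (-0.79, adjusted p = 0.0026 in limma). *EBP* and *PORCN* lie on the short arm. Whether these genes are present in fewer copies was not tested, as DNA was not analysed here.

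Chromosome 22 was lower by a median of 0.24 over 337 genes in C5. The 75 tested genes before *BCR* had a median of -0.06 and the 261 after it -0.28. *BCR* is where this line's Philadelphia translocation joins chromosome 22 to *ABL1* of chromosome 9. The 426 genes of chromosome 9 before *ABL1* had a median of -0.17 and the 93 after it -0.03. Chromosome 9 before *ABL1* was lower in other clones as well, with -0.14 in C2, -0.11 in C4 and -0.07 in C1. The part of chromosome 22 after *BCR* was lower to a lesser degree in C2 (-0.20), C4 (-0.17) and C1 (-0.10), and within C5 it varied, with -0.36, -0.17, -0.33 and -0.22 in the 4 libraries. Within it, 36 genes from *RBFOX2* to *DMC1* were all below 0, at a median of -0.42. Without chromosome 13 and the stretches of chromosomes 22 and X, 414 genes were higher and 273 lower in C5.

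The 13 mitochondrially encoded genes were all below 0, at a median of -0.54, and *MT-ND5*, a subunit of respiratory complex I, passed (-0.94, adjusted p = 0.0291 in limma). The libraries did not move together: the medians were -0.59, 0.09, -0.71 and -0.93 in C5 and -0.28, 0.19, 0.31 and -0.23 in WT, and EV and the other clones were lower than WT as well, by 0.20 to 0.77. C5 replicate 2 overlapped with the WT libraries. Of 38 nuclear genes of complex I, *NDUFB8* (0.45) and *NDUFB5* (0.54) were higher and *NDUFA1* on chromosome X was lower. The shares of 5.26% and 2.63% are near the 3.28% and 4.27% of all genes.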

How the data were processed

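RNA of 32 HAP1 and 15 HCT116 libraries was sequenced in read pairs. Per the labels and the study's methods, the authors used STAR for alignment (GRCh38.p13), RSEM for quantification and FastQC (versions not given in the sources used here), and deposited FPKM for 57507 genes without further normalization between libraries. FPKM hides the number of fragments behind a value, and abundant transcripts can shift all others. All 47 columns were matched through the labels, and 2 HCT116 libraries with conflicting labels entered no comparison between groups. The study describes the 4 libraries of a line as biological replicates. For C5 they come from 1 clone, so p-values measure the spread between libraries of that clone.

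Values were analysed as log2(FPKM + 1), with a pseudocount of 1, for genes whose mean reached 1 FPKM, with limma 3.58.1 in R 4.3.3 (lmFit, eBayes with a mean-variance trend, two-sided) and Benjamini-Hochberg adjustment over all genes tested. Tables and figures used Python 3.11.15, pandas 2.3.3, numpy 2.4.6 and matplotlib 3.10.9. Positions came from GENCODE release 44 (98% of genes matched by identifier) and promoters from RefSeq (GRCh38.p14). The fits were tested on simulated data with known changes. Members and lists were chosen with earlier results of these data known. Named were *NUP58*, 4 import receptors, the 15 largest rises and falls outside chromosome 13 that passed with a fold over 2 and no overlap, up to 4 members per list and direction by smallest adjusted p, and the 6 largest differences from the other clones in each direction. Genes with clone names were counted but not described, and a few other genes that the rule names are not reported here. Members of lists beyond 4, the markers of HCT116 cells and the genes that bound stretches were named after their values were seen. Alternatives were the pseudocount, the filter, the scaling, the variance model, a replicate block, the control, the samples fitted, the threshold and each library left out.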

Additional observations from a re-analysis of the deposited data

Results flagged for a closer look

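In 6 of 228 groups of 4 libraries searched (2.63%), 1 library lay apart from the other 3, as its gap to the nearest one, divided by the whole range, exceeded Dixon's 95% critical value. Chance gives about 1 in 20 groups, so that these are fewer than chance alone would give, and nothing is read from them. The ratio was 0.864 for *ERVK-28* in WT, where replicate 2 was lowest, 0.953 for *FZD3* in C5 and 0.833 in WT, where replicate 2 was highest both times, 0.849 for *CDKN1B* in C5, 0.839 for *GPC3* in WT and 0.890 for *HDAC9* in C5, where replicate 3 was lowest each time. *FZD3* was at 5.99, 6.94, 5.97 and 6.01 FPKM in C5 and 3.10, 4.06, 3.07 and 3.24 FPKM in WT. *CDKN1B* was at 54.8, 57.0, 42.1 and 56.1 FPKM in C5 and 33.3, 38.3, 22.8 and 30.5 FPKM in WT. *GPC3* was at 112, 133, 60.9 and 136 FPKM in C5 and 302, 287, 173 and 281 FPKM in WT. C5 and WT did not overlap for any of the 5 genes, but *ERVK-28* was named by a rule that required this, and the others as genes past the test. Over all 13164 genes tested, all C5 values lay above all WT values in 1131 and below them in 1056.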

How the results depend on the processing

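The counts of 432 higher and 562 lower genes depended on the fit. They were 207 and 276 in an unmoderated test with unequal variances, 944 and 947 against EV, 1328 and 1320 against WT and EV together, and 143 and 161 at the study's criterion, and 781 were higher with all 32 HAP1 libraries in 1 fit. Leaving out 1 library gave 185 to 573 higher and 315 to 614 lower genes. Without chromosome 13 and the shifted stretches, chosen after seeing the data, 273 were lower. Against the other 5 clones, 463 higher and 558 lower genes became 261 to 310 and 401 to 494 when a C5 library was left out, and 394 to 491 and 491 to 601 when a clone was. Another pseudocount, filter, scaling or no trend moved counts by less than 1.5 times. The cause of these shifts was not tested. Replicate numbers paired the libraries in part. Same-numbered C5 and WT libraries had correlations of deviations of 0.03, 0.67, 0.44 and -0.03, and those of different number -0.50 to 0.33. Replicates 2 and 3 thus moved together across the lines, and the main fit did not take this into account. With a replicate block, 1016 genes were higher and 1131 lower against WT and 801 higher against the other clones. *KPNB1* ranged from -0.11 without WT replicate 2 to 0.26 without C5 replicate 2, and was -0.04 without C5 replicate 3. Over named genes and alternatives, 1931 values kept direction and side of the threshold, 326 lost their call and 5, all of *TNPO1*, gained one. FPKM does not give the fragments behind a value, so counting error is unknown.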

Other observations

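*HDAC9*, a class IIa histone deacetylase, was at 115, 116, 106 and 116 FPKM in C5 and 48.7, 47.4, 40.6 and 46.2 FPKM in WT, a log2 difference of 1.29 ± 0.09 (SE; limma adjusted p = 9.53e-05), and was the 1 of 38 chromatin regulators past the test. *ISG15*, an interferon-induced ubiquitin-like modifier, was at 26.0, 22.9, 26.2 and 31.6 FPKM in C5 and 7.82, 9.97, 4.33 and 4.00 FPKM in WT, a log2 difference of 1.95 ± 0.25 (SE; limma adjusted p = 0.00152), whereas *BST2*, the antiviral tetherin, was lower (-0.77, adjusted p = 0.028 in limma). They were the 2 of 19 interferon-stimulated genes past the test, 5.26% each way. Of the chromatin regulators 2.63% were higher, and of all genes 3.28% were higher and 4.27% lower. *GATA2*, a transcription factor of blood progenitors, was at 28.7, 36.0, 32.1 and 29.6 FPKM in C5 and 16.7, 18.4, 15.3 and 16.7 FPKM in WT, a log2 difference of 0.87 ± 0.11 (SE; limma adjusted p = 0.00161), while the SRC family kinase *LYN* was lower (-0.49, adjusted p = 0.0304 in limma).

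*ANXA1*, a phospholipid-binding annexin, was at 3.56, 2.64, 1.97 and 3.35 FPKM in C5 and 16.5, 9.47, 9.60 and 7.60 FPKM in WT, a log2 difference of -1.57 ± 0.23 (SE; limma adjusted p = 0.00329). EV was at 3.13 to 6.00 FPKM, and C5 differed from EV by -0.40 (adjusted p = 0.224 from limma). *MT2A*, a metallothionein that binds zinc and copper, differed from WT by 0.59 (adjusted p = 0.0469) and from EV by 0.19 (adjusted p = 0.492) in limma.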
